A study of Mus musculus with 8 samples.

Results

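Genes of iron uptake, storage, export and hepcidin control were examined in liver of mice that lack SIRT7 (knockout, SIRT7 KO) and of wild-type mice (WT). SIRT7 is an NAD-dependent protein deacylase of the nucleus. The study profiled 8 livers, 4 of each genotype, with 1 Affymetrix mouse expression array for each liver. The labels name genotype and tissue alone, so age, sex, litter and batch of these mice are unknown here, and the p-values measure only the spread between these arrays. Values are log2 expression levels of probe sets, the groups of short probes on the array that report on a transcript, and a difference is the SIRT7 KO mean minus the WT mean on that log2 scale. Of 10 listed iron genes, 8 had a probe set annotated to them and to no other gene, with 26 such probe sets in all out of 22690 on the array. The members were chosen from the SIRT7 KO against WT differences of these same arrays, so their differences are given below as a description, without a test.

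Liver cells take up iron bound to transferrin (Trf) through the transferrin receptors, hold it inside ferritin shells made of heavy (Fth1) and light (Ftl1) chains, and release it through ferroportin (Slc40a1), with ceruloplasmin (Cp) oxidizing the released iron. Hepatocytes also secrete hepcidin, the peptide encoded by Hamp, which binds ferroportin and drives its degradation, and thereby limits how much iron enters the blood. Hepcidin transcription rises with iron through the BMP and SMAD pathway, with Hfe and Tfr2 as sensors of transferrin iron, and with inflammation through IL-6 and STAT3. Tfrc messenger RNA is stabilized by the iron regulatory proteins when cell iron is low.

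The targeted gene followed the labels. The Sirt7 probe set 1424238_at read between 8.57 and 8.98 on the WT arrays and between 4.40 and 4.90 on the SIRT7 KO arrays, a difference of -4.21 ± 0.13 (SE, n = 4 per genotype, limma adjusted p = 9.2e-07). Array medians were between 6.30 and 6.36. Hepatocyte markers such as Alb were bright on every array. Of 8 listed markers 7 were measured, 0 of them were called by limma and 0 had an unadjusted p under 0.05, and their mean level was between 14.39 and 14.48 in WT and between 14.35 and 14.38 in SIRT7 KO, a small shift in which the genotypes did not overlap. In whole liver, fewer cells of a type and less RNA per cell cannot be told apart.

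Hamp messenger RNA was lower in SIRT7 KO livers, and that of the transferrin receptor Tfrc was higher on the brightest of its 3 fitted probe sets. These were the 2 members whose genotypes did not overlap on at least 1 probe set. Hepcidin peptide and receptor protein were not measured on these arrays. Over the 23 member probe sets that entered the fit, the genotypes were fully separate, with all 4 arrays of one above all 4 of the other, on 3 probe sets, 2 of Hamp and 1 of Tfrc. Such separation was seen for 9.35% of all 22626 probe sets tested. A probe set was called changed at a limma p adjusted over all probe sets under 0.15, the false discovery rate of the study. By that rule 1 of the 23 member probe sets was called, that of Tfrc, beside 4.31% of all probe sets, and nothing is read from either count because the members were selected on this contrast. Tfr2 (-0.34 and -0.21) and Slc40a1 (-0.35 and -0.27) were lower in mean on each of their probe sets, with overlap between genotypes. The remaining members, Hfe, Slc11a2, Fth1 and Cp, differed by less than 0.2 on every probe set. Over all 23 probe sets, those of Hamp and Tfrc included, 16 differed by less than 0.2. The median absolute difference was 0.12 over the member probe sets beside 0.092 over all probe sets.

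**Figure D1:**
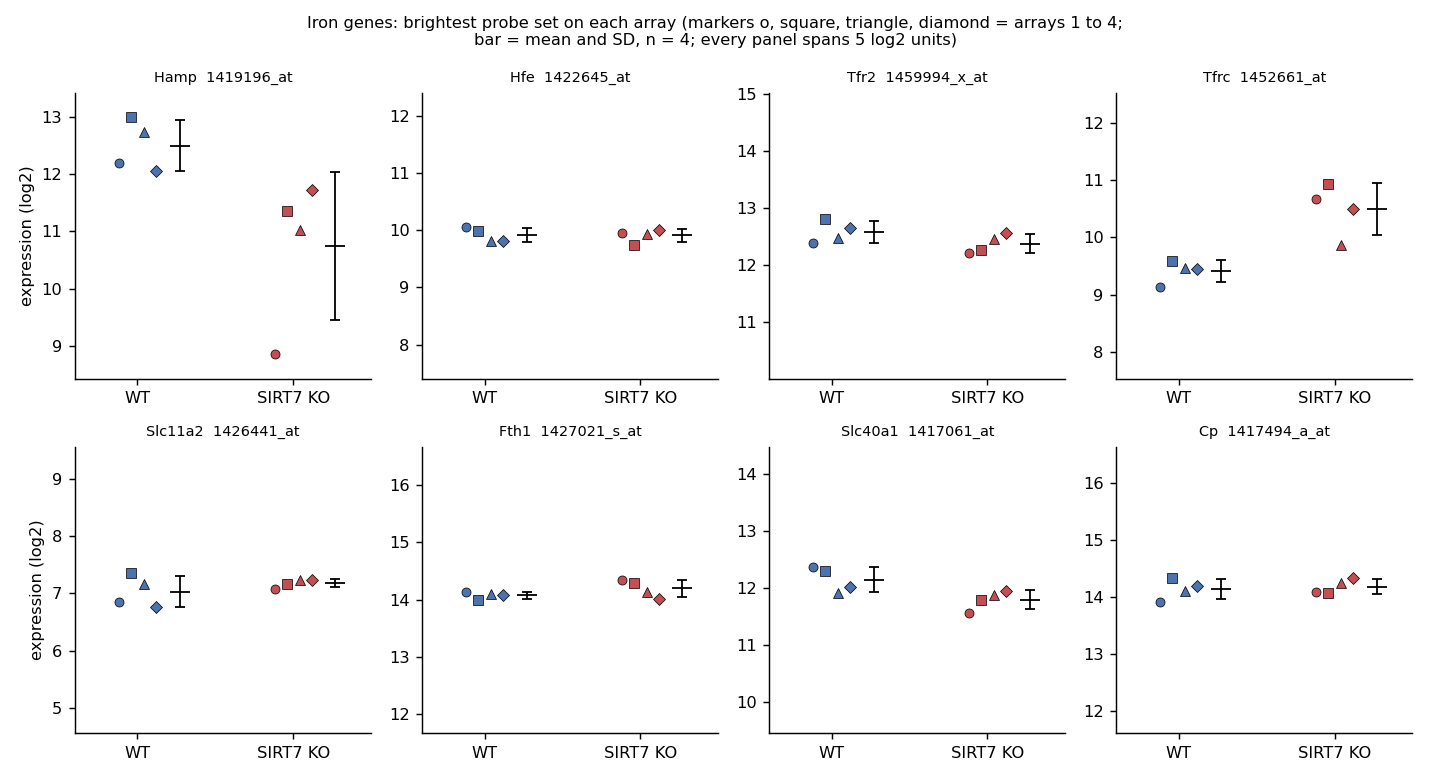
Log2 expression (vertical axis, each panel spanning 5 log2 units) of the brightest probe set of each measured iron gene on the 4 WT arrays (blue) and the 4 SIRT7 KO arrays (red). Symbols mark array numbers and bars give mean and SD (n = 4). Every SIRT7 KO value lay below every WT value for Hamp and above every WT value for Tfrc, whereas the genotypes overlapped for the other 6 genes.

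Hamp was read by a pair of probe sets. On 1419196_at the WT arrays 1 to 4 read 12.20, 13.00, 12.74 and 12.05, and the SIRT7 KO arrays 1 to 4 read 8.85, 11.36, 11.02 and 11.73. Every SIRT7 KO liver was thus below every WT liver, with a gap of 0.32 between the nearest arrays, and SIRT7 KO array 1 stood well below the other three. The WT mean was 12.50 ± 0.45 and the SIRT7 KO mean 10.74 ± 1.29 (SD, n = 4), a difference of -1.76 ± 0.55 (SE) or 3.38-fold lower.

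The second Hamp probe set, 1419197_x_at, read 11.62, 12.47, 12.22 and 11.44 in WT and 8.35, 10.81, 10.41 and 11.07 in SIRT7 KO, and its difference was -1.78 ± 0.54 (SE). The arrays fell in the same order on both probe sets within SIRT7 KO, with array 1 lowest and array 4 highest. Neither probe set passed the call threshold over all arrays. SIRT7 KO array 1 contributed much of the size: without it the differences were -1.13 and -1.17, with standard errors of 0.25 and 0.26.

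The mouse genome holds a close copy of the hepcidin gene, Hamp2, and probes of one copy can bind transcripts of the other. Hamp2 had probe sets of its own. Its brighter one, 1436643_x_at, read 12.30, 10.80, 12.93 and 8.96 in WT and 11.07, 10.57, 9.97 and 9.52 in SIRT7 KO. The genotypes overlapped there, with a difference of -0.96 ± 0.76 (SE, limma adjusted p = 0.618). SIRT7 KO array 1, lowest of its group on the Hamp probe sets, was highest of its group on this one. Its other probe set, 1456289_at, read between 4.03 and 4.50 on all arrays.

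The promoters of the 2 hepcidin copies are shown because the elements known to relay the BMP and the STAT3 signal to hepcidin lie there. The stretches are 80 bases long, read 5′ to 3′ on the minus strand of the GRCm38.p6 assembly from RefSeq, at chr7:30944087-30944166 for Hamp and chr7:30924236-30924315 for Hamp2. Capitals mark GGCGCC, the core of the BMP response element, and TTCNNNGAA, the form that STAT factors bind.
Hamp: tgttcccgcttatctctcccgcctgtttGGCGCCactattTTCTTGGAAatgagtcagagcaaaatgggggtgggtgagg
Hamp2: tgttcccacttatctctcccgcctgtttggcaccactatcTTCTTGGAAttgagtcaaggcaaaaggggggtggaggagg

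In Hamp the first element began 109 bases before the annotated gene start and the second 97 bases before it, with 6 bases between them. The stretches of Hamp and Hamp2 shared 71 of 80 bases (88.8%). One of the 9 differences, G32A (Hamp base, position counted from 1 at the 5′ end of the stretch, Hamp2 base), fell inside GGCGCC, and none fell inside TTCNNNGAA. Among 32851 promoter windows of 300 bases in the RefSeq table, GGCGCC was found in 11.9% and TTCNNNGAA in 8.3%, each reading alike on both strands, and starts of the pair lay within 20 bases of each other in 16 windows (0.0487%). The table held windows for 7 of the 10 members, Slc40a1, Slc11a2 and Trf having none there. Among these, GGCGCC was also found in 1 window of Tfrc, and TTCNNNGAA in none but Hamp. A match of letters describes the window and shows no binding.

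The sensors of transferrin iron were close to their WT levels or slightly below. Hfe, the hemochromatosis protein, which associates with the transferrin receptors, read between 9.81 and 10.06 in WT and between 9.75 and 10.00 in SIRT7 KO on 1422645_at, with a difference of -0.0076 ± 0.085 (SE). On 1450702_at its difference was -0.083 ± 0.099. The genotypes overlapped on each.

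Tfr2, the second transferrin receptor and a hepatocyte iron sensor, was lower in mean on both of its probe sets. On 1425381_a_at the WT arrays read 11.97, 12.17, 11.72 and 11.99 and the SIRT7 KO arrays 11.50, 11.40, 11.76 and 11.83, with a difference of -0.34 ± 0.12 (SE). WT array 3 was the only WT array below any SIRT7 KO array. On 1459994_x_at the difference was -0.21 ± 0.11, again with overlap.

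Among the uptake genes Tfrc stood apart. On 1452661_at the WT arrays 1 to 4 read 9.13, 9.58, 9.47 and 9.45, and the SIRT7 KO arrays 1 to 4 read 10.68, 10.93, 9.86 and 10.50. All 4 SIRT7 KO livers were above all 4 WT livers, with SIRT7 KO array 3 the nearest, 0.28 above the highest WT array. The WT mean was 9.41 ± 0.19 and the SIRT7 KO mean 10.49 ± 0.46 (SD, n = 4), a difference of 1.08 ± 0.21 (SE) or 2.12-fold higher. Differences of at least 1 log2 unit in either direction were found for 0.667% of all probe sets. Nothing is read from that share, because Tfrc was selected on this contrast. Leaving out 1 array at a time gave differences from 0.94 to 1.30, and WT array 1 was the only array whose removal ended the call.

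The other Tfrc probe sets were dim, overlapped between genotypes and did not show a difference of this size. On 1422966_a_at the WT arrays read between 5.10 and 5.40 and the SIRT7 KO arrays between 5.11 and 5.57, with a difference of 0.17 ± 0.11 (SE). The third, 1422967_a_at, lay below 4.56, the lower quartile of all probe set means, and differed by -0.10 ± 0.084. The manufacturer also placed 3 control probe sets on Tfrc, toward the 3′ end, the middle and the 5′ end of its transcript, and these stayed outside the fit. The 3′ control read 4.51, 4.62, 4.49 and 4.50 in WT and 4.76, 4.80, 4.51 and 4.76 in SIRT7 KO. Here SIRT7 KO arrays 1, 2 and 4 exceeded every WT array and array 3, also the lowest SIRT7 KO array on 1452661_at, did not. The 5′ and middle controls differed by 0.011 and 0.07 between the genotype means and lay below the lower quartile. The 3′ minus 5′ difference, which grows as RNA is degraded, was between 0.16 and 0.29 in WT and between -0.016 and 0.16 in SIRT7 KO for the Gapdh controls. For the Tfrc controls it went the other way, between 0.62 and 0.81 in WT and between 0.84 and 0.98 in SIRT7 KO. On the Tfrc controls the genotypes did not overlap, with the dim 5′ control below the lower quartile. That 5′ control had means of 3.80 in WT and 3.81 in SIRT7 KO, and the 3′ control 4.53 and 4.71. The genotype shift in the Tfrc value thus came from the 3′ control. The part of RNA quality in the Tfrc difference was not tested.

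Red cell precursors carry much Tfrc, so their markers are given beside it. Of 16 listed erythroid markers 10 were measured, 0 were called by limma in either direction (2 at an unadjusted p under 0.05), and their mean log2 level was between 5.21 and 5.70 in WT and between 5.27 and 5.55 in SIRT7 KO. Hba-a1, Ermap and Rhag were below the lower quartile. The mean was higher in SIRT7 KO for 5 of the 10, with a median difference of -0.017. Differences ran from -0.60 ± 0.25 (SE) for Car1 to 0.11 ± 0.07 for Rhag (limma adjusted p = 0.306 and 0.51). Alas2, the erythroid enzyme of heme synthesis, differed by -0.43 ± 0.16 (limma adjusted p = 0.257). The part of these cells in the Tfrc value was not tested.

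For Tfrc, 30 bases around the annotated gene start are shown, because the promoter of this gene is known to hold a hypoxia response element there or nearby. They come from chr16:32608882-32608911, plus strand, GRCm38.p6 (RefSeq), 5′ to 3′, with ACGTG, the core of such elements, in capitals. The core began 2 bases before the annotated start of 1 of 2 Tfrc windows. On either strand ACGTG was found in 19.6% of all promoter windows and, among the members, in both windows of Tfrc and in 2 of 3 windows of Tfr2. The 2 Tfrc windows overlap, and the core shown is the same site in both.
Tfrc: ctcggtaggtgtACGTGcggaaggaagtga

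Slc11a2, the divalent metal transporter that moves iron out of the endosome, did not separate by genotype on any of its 3 probe sets. Their differences were -0.0048 ± 0.087, 0.14 ± 0.12 and 0.092 ± 0.11 (SE). Trf had 1 probe set, annotated to Srprb as well, and therefore gives no value here.

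The messenger RNA of the ferritin heavy chain was at nearly the same level in both genotypes, and ferritin protein was not measured on these arrays. Fth1 read 14.14, 13.99, 14.10 and 14.08 in WT and 14.35, 14.29, 14.14 and 14.01 in SIRT7 KO on 1427021_s_at, with a difference of 0.12 ± 0.086 (SE). SIRT7 KO arrays 1 and 2 were above every WT array and arrays 3 and 4 were not. On 1448771_a_at the difference was also 0.12, ± 0.068. The 3 probe sets of Ftl1 were shared with a pseudogene and microRNA entries and give no value here.

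The exporter Slc40a1 was lower in mean on both probe sets, in the same direction as Hamp and opposite to Tfrc. On 1417061_at the WT arrays read 12.36, 12.29, 11.91 and 12.01, and the SIRT7 KO arrays read 11.57, 11.79, 11.88 and 11.94, with a difference of -0.35 ± 0.12 (SE). Only SIRT7 KO array 4 exceeded a WT array, and by a narrow margin. On 1448566_at the WT arrays read 10.51, 10.46, 10.07 and 10.07 and the SIRT7 KO arrays 9.98, 10.02, 10.08 and 9.94, a difference of -0.27 ± 0.11. WT arrays 1 and 2 were the high ones on both probe sets.

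Slc40a1 is abundant in Kupffer cells, the macrophages of the liver, and none of their markers passed the threshold. Of 15 listed markers 14 were measured, 0 were called by limma or had an unadjusted p under 0.05, and none lay below the lower quartile. Their mean log2 level was between 8.18 and 9.08 in WT and between 8.31 and 9.13 in SIRT7 KO, so the genotypes overlapped. The mean was higher in SIRT7 KO for 13 of the 14, all but Cd163, with a median difference of 0.20, whereas Slc40a1 was lower. The part of these cells in the Slc40a1 value was not tested. WT array 2 (9.08) and SIRT7 KO arrays 3 (9.13) and 4 (8.92) were the high arrays. For Slc40a1 the highest arrays on both probe sets were WT array 1, with a marker level of 8.24, and then WT array 2.

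Ceruloplasmin, the plasma ferroxidase, showed no separation. Its 7 probe sets had differences from -0.082 to 0.14, with standard errors from 0.078 to 0.18. On the brightest, 1417494_a_at, the WT arrays read between 13.92 and 14.33 and the SIRT7 KO arrays between 14.07 and 14.33.

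**Figure D2:**
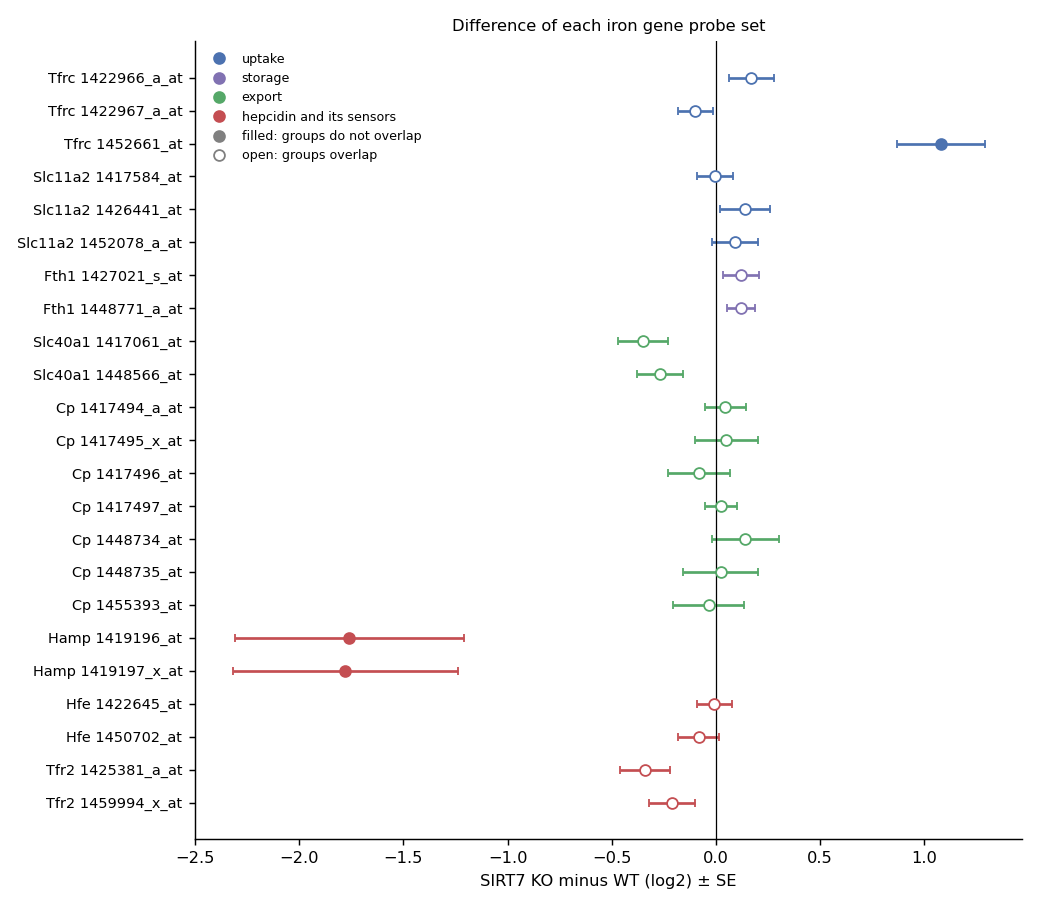
Difference between the SIRT7 KO and WT means (log2, horizontal axis) with the standard error of the model for each of the 23 member probe sets, colored by role. Filled points mark probe sets whose genotypes did not overlap: Hamp at -1.76 and -1.78 and 1 of the 3 Tfrc probe sets at 1.08.

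Genes that act around these members, not among them, were tested next, each by its brightest probe set and with p adjusted over all probe sets. Their lists were drawn up with earlier results of these arrays known, so the shares given for a list are no independent test of it. Of 96 listed symbols, older names included, 83 were measured. Of these, 1 rose and 5 fell in SIRT7 KO, 7.23% in all, beside 4.65% of all 12393 genes (2.17% rose and 2.48% fell). The mean was below WT for 53 of the 83 (63.9%) and for 50.7% of all genes, and the median difference was -0.069 beside -0.0031 over all genes.

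In the BMP and SMAD arm of hepcidin control 16 of 21 symbols were measured, of which Fkbp1a rose and Acvr2a fell. Fkbp1a encodes FKBP12, which binds the BMP type I receptor ALK2 and restrains its signaling and hepcidin. It read 10.18, 10.21, 10.40 and 10.15 in WT and 10.64, 10.78, 10.53 and 10.74 in SIRT7 KO on 1456196_x_at, a difference of 0.43 ± 0.084 (SE, limma adjusted p = 0.0585). All 4 SIRT7 KO livers were above all WT livers. Of its 4 other probe sets 3 were also called, and all 4 were higher in SIRT7 KO. Acvr2a, a type II receptor of BMP6, read between 9.13 and 9.20 in WT and between 8.74 and 8.94 in SIRT7 KO on 1437382_at, a difference of -0.30 ± 0.065 (limma adjusted p = 0.0812). Its other probe set, 1451004_at, was not called, at -0.34 ± 0.11 (limma adjusted p = 0.181).

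The ligand and the target genes of this arm did not pass. Bmp6, the iron-induced ligand made by sinusoidal endothelial cells, read 6.07, 6.46, 5.91 and 6.18 in WT and 6.01, 5.94, 5.72 and 5.92 in SIRT7 KO, a difference of -0.26 ± 0.12 (limma adjusted p = 0.359). Genes that SMAD signaling induces overlapped between genotypes: Id1 differed by -0.19 ± 0.26, Smad7 by -0.21 ± 0.20 and Atoh8, a transcription factor that activates hepcidin, by -0.016 ± 0.11, with limma adjusted p-values of 0.799, 0.685 and 0.968. Smad6, another such gene, named after its values were seen, differed by -0.27 ± 0.085 (limma adjusted p = 0.185), and it passed with array quality weights and without WT array 4. The mean was below WT for 13 of the 16 genes (81.2%), beside 50.7% of all genes, and the list median was -0.17. These 13 include genes with differences near 0, such as Atoh8. Of 8 sinusoidal endothelial markers, all measured, Lyve1 rose by 1.21 and Stab1 fell by 0.30 on the log2 scale (limma adjusted p = 0.0463 and 0.132), and the mean level of the list was between 7.79 and 8.03 in WT and between 7.90 and 8.12 in SIRT7 KO. The part of these cells in the Bmp6 value was not tested. Hjv, Tmprss6 and Erfe had no probe set of their own.

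In the IL-6 and STAT3 arm all 10 genes were measured and Il6ra, the ligand-binding chain of the IL-6 receptor, was the only one to pass. It read 8.10, 8.51, 8.50 and 8.96 in WT and 7.50, 6.90, 7.79 and 7.26 in SIRT7 KO on 1452416_at. The genotypes did not overlap, and the difference was -1.15 ± 0.21 (SE, limma adjusted p = 0.0511), or 2.23-fold lower. On its other probe set, 1422270_a_at, the genotypes overlapped and the difference was -0.30 ± 0.14 (limma adjusted p = 0.367). Socs3, a STAT3 target, ran from 6.62 to 8.91 in WT and from 7.29 to 8.80 in SIRT7 KO, a difference of -0.34 ± 0.51 (limma adjusted p = 0.82). The acute phase products Hp and Hpx, which bind free hemoglobin and heme, differed by -0.093 ± 0.13 and -0.017 ± 0.11 (limma adjusted p = 0.801 and 0.965).

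**Figure D3:**
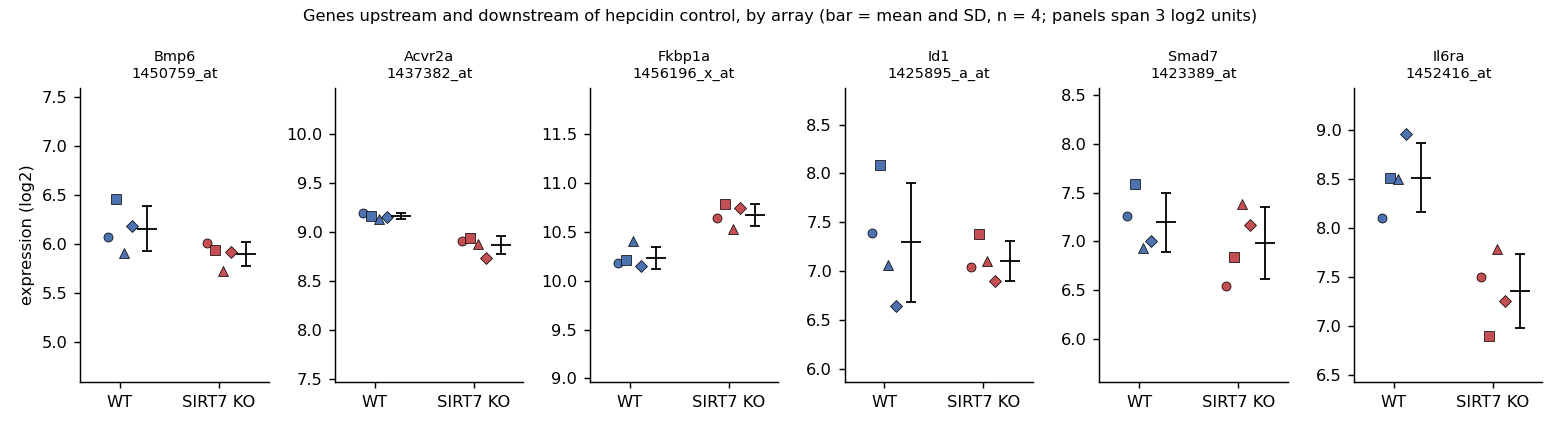
Log2 expression (vertical axis, each panel spanning 3 log2 units) of 6 genes around hepcidin control on each WT (blue) and SIRT7 KO (red) array, with mean and SD (n = 4). The genotypes do not overlap for Acvr2a, Fkbp1a and Il6ra, and overlap for Bmp6, Id1 and Smad7.

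The iron regulatory proteins, which set the stability of Tfrc and the translation of ferritin messages, were listed together with genes of the hypoxia response such as Hif1a and Epas1. Of 9 listed genes 7 were measured, 0 passed limma and 0 had an unadjusted p under 0.05. These are messenger RNA levels, and the amount and activity of the proteins were not measured on these arrays. Aco1, which encodes IRP1, differed by 0.11 ± 0.084 on its brightest probe set and by -0.17 ± 0.083 on the other, so its probe sets disagreed in direction (limma adjusted p = 0.618 and 0.373). Ireb2, which encodes IRP2, differed by -0.18 ± 0.099 (limma adjusted p = 0.453). Fbxl5, which marks IRP2 for degradation, had no probe set of its own.

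Among genes of cell iron handling 17 of 18 were measured and Slc39a8 fell. It encodes ZIP8, a carrier of zinc, manganese and iron not bound to transferrin, and read 10.00, 9.67, 9.76 and 9.64 in WT and 9.41, 9.43, 9.29 and 9.32 in SIRT7 KO on 1416832_at, with no overlap and a difference of -0.40 ± 0.089 (SE, limma adjusted p = 0.08). On its other probe set, 1448482_at, the genotypes overlapped and the difference was -0.29 ± 0.13 (limma adjusted p = 0.347). Ncoa4, the receptor that delivers ferritin to the lysosome, differed by -0.14 ± 0.096 (limma adjusted p = 0.57). Lcn2, which binds iron-loaded siderophores, varied far more within a genotype than between genotypes: it ran from 5.75 to 12.14 in WT and from 5.96 to 11.97 in SIRT7 KO, a difference of 0.35 ± 1.49 (limma adjusted p = 0.943).

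The mitochondrial steps of iron use each held 1 gene that fell. Abcb10, a transporter of the inner mitochondrial membrane that associates with the iron importer mitoferrin and with ferrochelatase, read 9.58, 9.44, 9.40 and 9.31 in WT and 9.05, 9.11, 9.01 and 9.03 in SIRT7 KO on 1416402_at, a difference of -0.39 ± 0.072 (limma adjusted p = 0.055). A second probe set, 1416403_at, was called too, at -0.47 ± 0.094 (limma adjusted p = 0.0657), and the third, 1454265_a_at, was dim and differed by 0.094 ± 0.091. It was the only one of 11 measured mitochondrial iron and iron-sulfur genes to pass.

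Fech, ferrochelatase, which inserts iron into protoporphyrin in the last step of heme synthesis, read 11.70, 11.57, 11.68 and 11.61 in WT and 11.45, 11.33, 11.36 and 11.20 in SIRT7 KO on 1418699_s_at, a difference of -0.30 ± 0.072 (limma adjusted p = 0.098). It was called on 1418698_a_at as well, at -0.37 ± 0.068 (limma adjusted p = 0.0511). Its 2 other probe sets did not pass, at -0.12 ± 0.088 and 0.16 ± 0.087. Alas1, the first and rate-limiting enzyme of heme synthesis in liver, ran from 9.56 to 12.73 in WT and from 11.40 to 12.26 in SIRT7 KO, a difference of 0.61 ± 0.54 (limma adjusted p = 0.666) that became 0.09 without WT array 1 and 1.15 without WT array 4. None of 15 genes of heme breakdown, transport and scavenging passed limma (4 at an unadjusted p under 0.05), and Hmox1, heme oxygenase, differed by 0.12 ± 0.16 (limma adjusted p = 0.795). Nearest to the threshold was Flvcr2, named after its values were seen, at -0.52 ± 0.15 without overlap (limma adjusted p = 0.154). It passed with quantile normalization, median centering, array quality weights and the replicate block, among others. Of the fits that left out 1 array, it passed only without WT array 3.

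The 6 further genes kept their direction in each of 8 fits that left out 1 array, and their calls differed in firmness. Il6ra and Abcb10 stayed under the threshold in all 8 fits. Without WT array 1 the adjusted p of Fkbp1a, Acvr2a, Slc39a8 and Fech was 0.164, 0.203, 0.158 and 0.23. Without SIRT7 KO array 4 it was 0.155, 0.192, 0.199 and 0.22 in that order. Acvr2a also lost its call without WT array 2 (0.16), Slc39a8 without SIRT7 KO array 3 (0.162), and Fech when WT array 3 (0.169), or array 2 (0.189) or 3 (0.164) of SIRT7 KO, was removed.

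**Figure D4:**
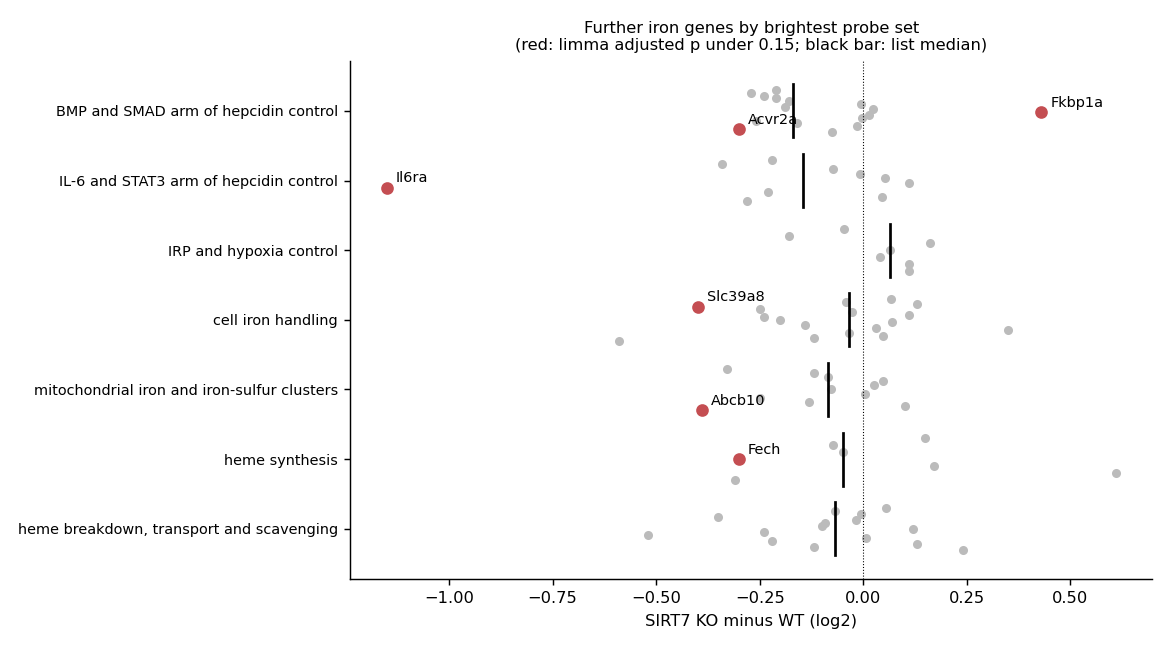
Difference between the SIRT7 KO and WT means (log2, horizontal axis) for each further iron gene, by list, with the list median as a black bar. Red points passed the limma threshold: Fkbp1a at 0.43, Acvr2a at -0.30, Il6ra at -1.15, Slc39a8 at -0.40, Abcb10 at -0.39 and Fech at -0.30.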

How the data were processed

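Total liver RNA of 4 WT and 4 SIRT7 KO mice was hybridized to Affymetrix mouse expression arrays. The authors deposited log2 expression values, 1 per probe set and array. RMA is named in their methods, GCRMA in the submitters' processing notes, and it is unknown which was applied; no version is stated. The values were used as deposited.

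Of 22690 probe sets, 64 controls were left out and 22626 were tested, with no filter on low values. Gene names came from GEO's platform annotation, and each of 12393 genes was represented by its brightest probe set (highest mean of 8 arrays). The genotypes were compared with limma 3.58.1 in R 4.3.3 (lmFit and eBayes, genotype as the only term, two-sided, p adjusted by Benjamini-Hochberg across the 22626 probe sets), with calls at an adjusted p under 0.15. The fit was tested on simulated data. Member genes are described without a test. The members and gene lists were chosen with earlier results of these data known. The text names every member, every further iron gene that passed, and a set of known regulators whether or not they passed. The number of arrays limits the precision.

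Alternatives were a stricter threshold, trended and robust eBayes, array quality weights, quantile normalization, median centering, the replicate number as a block, a filter on dim probe sets, any or the brightest probe set of a gene, and leaving out each array. Promoter sequences and motif counts came from RefSeq windows on GRCm38.p6, 250 bases before to 50 after each gene start.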

Additional observations from a re-analysis of the deposited data

Results flagged for a closer look

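In 90 groups of 4 arrays examined over the member probe sets and the named genes, 4 single arrays lay far from the other arrays of their group, and chance alone flags about 1 in 20 groups. On the 3′ control probe set of Tfrc, WT array 2 read 4.62 with the nearest WT array at 4.51, and SIRT7 KO array 3 read 4.51 with the nearest SIRT7 KO array at 4.76. For Ireb2, WT array 1 read 10.30 with the nearest WT array at 9.99. For Hmox1, SIRT7 KO array 2 read 6.86 with the nearest SIRT7 KO array at 7.45.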

How the results depend on the processing

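The 6 further iron genes that passed kept their direction under every alternative run. Over all probe sets 975 were called, against 156 at an adjusted p under 0.05, where 0 further iron genes passed limma (17 at an unadjusted p under 0.05), and 628 with the replicate number as a block. Leaving out 1 array gave 222 to 900 calls over all probe sets, fewest without WT array 1 (267 when SIRT7 KO array 4 was removed), 2 to 8 among the further iron genes, with 2 for each of these arrays, and 0 to 3 among the member probe sets, with 0 without WT array 1, and 3, the Tfrc probe set and both of Hamp, without SIRT7 KO array 1. The total over all probe sets rose to 1331 with array quality weights and to 1175 with a filter on dim probe sets. Array quality weights called 11 further iron genes, the 6 and Smad4, Smad6, Fdx1, Flvcr2 and Hebp1, and 2 member probe sets, Tfrc 1452661_at and Hamp 1419197_x_at. The same 2 were called with the replicate block and with a filter on dim probe sets, an alternative chosen after seeing the data. The member calls are description only, because the members were selected on this contrast. Under the block 5 further iron genes passed: Acvr2a (adjusted p = 0.167) and Fech (0.157) did not, and Flvcr2 did. The labels number the arrays 1 to 4 in each genotype, but the numbers were not taken as pairs, since deviations of same-numbered arrays correlated at 0.26, -0.25, -0.16 and 0.15 over the probe sets. Of the arrays, 0 of WT and 1 of SIRT7 KO correlated best with their own number.

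Among named genes that did not pass, the direction turned on leaving out 1 array for Id1 (differences from -0.41 to 0.073), Atoh8 (-0.071 to 0.073), Hpx (-0.092 to 0.042) and Lcn2 (-0.72 to 1.47), and for Hpx with array weights (0.0052). Among the members, whose differences are descriptive, it turned for 1 probe set of Hfe (-0.042 to 0.046), 1 of Slc11a2 (-0.069 to 0.051) and 6 of Cp (-0.17 to 0.14). The cause of these changes was not tested. Quantile normalization and median centering left the median difference of all probe sets at -0.0059 and -0.0075. Probe sets below the lower quartile, among them 1 of Tfrc, limit what can be read from dim signals.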
